A study of Mus musculus with 20 samples.

Results

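The keratinocytes described here transcribe Krt14 or Krt5 together with Gnmt, Cbs and Fndc1 and were taken from single-cell RNA libraries of mouse back skin while hair was growing (anagen). They were selected on measured values. UMIs are unique molecular identifiers, which count captured RNA molecules. A cell was kept with 500 or more genes detected and no more than 15% of its UMIs from mitochondrial genes. It was selected with at least 50 Krt14 and Krt5 UMIs per 10000, at least 3 UMIs of Gnmt, Cbs and Fndc1 together, no Fgf5 UMI, and at most 2 UMIs of Cd34, Postn, Fgf18 and Nfatc1 and at most 2 of Ly6a and Fcgbp. The selection left 227 cells of the Fgf5 mutant library and 587 of the control library, 814 of the 25611 cells kept in all. They are called Gnmt/Cbs cells below.

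The mutant group carried Nfatc1-CreER;R26R;mTmG;Fgf5-/-, with tamoxifen for 3 days from postnatal day 23 or 24. The control group carried Nfatc1-CreER;R26R;mTmG, with tamoxifen for 3 days from postnatal day 21 or 22. Both groups therefore share the driver and the reporters, the start of tamoxifen differs with genotype, and the genotype and the start cannot be told apart. Nfatc1-CreER is a tamoxifen-dependent recombinase made where Nfatc1 is active, which includes bulge stem cells, and the mTmG reporter changes colour, red before recombination and green after it. The labels list 16 mutant and 4 control samples, do not say which are separate animals, describe neither the Fgf5 allele nor the age at harvest, and each group was deposited as 1 matrix. Each group therefore counts as 1 sample. No p-value was computed, and every interval given is a 95% interval that covers counting error only.

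The outer root sheath is the outermost epithelial layer of the hair follicle. It runs from the basal epidermis past the bulge, where follicle stem cells reside, down to the bulb. Gnmt encodes glycine N-methyltransferase, a liver enzyme best known for using S-adenosylmethionine to turn glycine into sarcosine. Cbs encodes cystathionine beta-synthase, which commits homocysteine and serine to the making of cysteine, a building block of glutathione. Fndc1 encodes a protein with fibronectin type III domains. FGF5, the secreted product of Fgf5, is known as a signal that ends hair growth.

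The kept cells of the mutant library had a median of 6177 UMIs and 4.95% mitochondrial UMIs, against 5712 UMIs and 3.22% in the control library. The Gnmt/Cbs cells had medians of 5142 UMIs, 1779 genes and 5.42% in the mutant library, against 5628 UMIs, 1970 genes and 3.63% in the control library. Fgf5 was still counted in both: 1.56% of the mutant Krt14 and Krt5 cells held an Fgf5 UMI (37 of 2379, interval 1.10 to 2.14%), against 4.25% of the control ones (121 of 2845, 3.54 to 5.06%). A 3' UMI outside the deleted part of an allele checks nothing, so these values say nothing of the genotype. Transcripts of other cell types were counted in these cells. Haemoglobin transcripts reached 3 UMIs in 11.5% of mutant and 60.5% of control Gnmt/Cbs cells, melanocyte transcripts in 31.7% and 6.81%, and inner root sheath transcripts in 19.4% and 61.8%. T cell transcripts did so in 3.08% and 10.6%. The 2 libraries shared 59 barcodes, 39 of them among kept cells, and no barcode was a Gnmt/Cbs cell in both. Doublets were called but not removed, and 2.64% of mutant and 3.58% of control Gnmt/Cbs cells carried such a call.

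The 3 genes used for selection all lie on chromosome 17 on the minus strand of GRCm38. Gnmt (ENSMUSG00000002769) spans 46725664 to 46729168, Cbs (ENSMUSG00000024039) spans 31608894 to 31637238, and Fndc1 (ENSMUSG00000071984) spans 7738569 to 7827302. Their promoters are shown because the rule summed these genes. Each RefSeq GRCm38.p6 sequence below holds 250 bases before the transcript start and 50 after it, 5' to 3' on the gene's strand, at chr17:46729116-46729415 for Gnmt, chr17:31637156-31637455 for Cbs and chr17:7827253-7827552 for Fndc1. Capitals mark matches, on either strand, to CCAAT (the CCAAT box), to TATAA (the core of the TATA box), to GGGCGG (the GC box) or to ACAAT (core letters of SOX binding sites).
Gnmt: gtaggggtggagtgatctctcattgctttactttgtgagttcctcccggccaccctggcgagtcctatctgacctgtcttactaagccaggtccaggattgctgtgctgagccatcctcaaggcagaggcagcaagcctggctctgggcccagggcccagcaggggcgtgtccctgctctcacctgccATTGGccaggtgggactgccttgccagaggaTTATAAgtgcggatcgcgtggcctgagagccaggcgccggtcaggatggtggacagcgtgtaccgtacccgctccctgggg
Cbs: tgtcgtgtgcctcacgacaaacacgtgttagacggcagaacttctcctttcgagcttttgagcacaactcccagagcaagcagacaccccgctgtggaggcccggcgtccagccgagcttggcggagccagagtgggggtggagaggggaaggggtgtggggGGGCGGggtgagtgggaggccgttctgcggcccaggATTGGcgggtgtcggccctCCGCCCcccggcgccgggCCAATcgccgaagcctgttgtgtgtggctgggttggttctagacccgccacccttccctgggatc
Fndc1: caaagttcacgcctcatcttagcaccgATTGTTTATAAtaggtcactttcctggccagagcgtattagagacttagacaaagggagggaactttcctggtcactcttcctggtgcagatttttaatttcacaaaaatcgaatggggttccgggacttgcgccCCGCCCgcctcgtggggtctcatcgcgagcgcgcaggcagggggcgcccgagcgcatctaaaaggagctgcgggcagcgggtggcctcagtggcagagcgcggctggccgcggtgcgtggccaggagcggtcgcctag
The letters TTATAA, which hold TATAA on both strands in overlap, start 31 bases before the Gnmt transcript start, and a CCAAT match lies 62 bases before it. The Cbs window held 2 CCAAT and 2 GGGCGG matches and no TATAA. The Fndc1 window held an ACAAT match 223 bases before the start, directly followed by TTATAA at 218, and a GGGCGG match at 88. No set of these letters was found in all 3 windows. Of the 32851 promoters of the same length, 37.4% held CCAAT, 24.9% held TATAA, 35.7% held GGGCGG and 31.0% held ACAAT. A match describes the letters only.

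Levels are given as CPM, the UMIs of a gene per 1000000 UMIs summed over the cells of a set. Gnmt summed to 695 CPM in mutant and 773 CPM in control Gnmt/Cbs cells, with a median of 3 UMIs per mutant cell and 5 per control cell. Cbs stood at 417 CPM in mutant and 372 CPM in control cells, and Fndc1 at 203 CPM and 162 CPM. The rule fixed these levels from below, so they are a description. UMIs of all 3 genes were held by 52.0% of mutant and 55.7% of control Gnmt/Cbs cells, and 30.4% and 28.1% held Gnmt and Cbs without Fndc1. Gnmt alone reached the limit in 10 mutant and 25 control cells. The rule asks for at least 3 UMIs of these genes together, which itself raises such shares. They are therefore a description and do not show that the genes go together. As a background level, cells with T cell genes held a Gnmt UMI in 2.42% of mutant and 6.11% of control cells at median depths of 2248 and 2552 UMIs, and cells with melanocyte genes in 2.97% and 4.34% at 13400 and 14660 UMIs. A stretch near the 3' end of Cbs also occurs in transcripts of 9 other genes, so part of its count could belong to them.

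The label outer root sheath was set against marker genes. Krt17, a keratin of the outer root sheath, summed to 7035 CPM in mutant and 7338 CPM in control Gnmt/Cbs cells. Cells with none of the 3 genes that met the other terms of the rule had 5624 CPM and 6483 CPM, so Krt17 hardly set Gnmt/Cbs cells apart. Its 3' sequence is shared with Krt14 and Krt16. Sox9, a transcription factor of follicle stem and sheath cells, was counted in 74.0% of mutant and 74.3% of control Gnmt/Cbs cells. It summed to 484 CPM and 452 CPM. Lhx2, another follicle factor, summed to 136 CPM and 139 CPM. The level of Sox9 was close to that of the other Krt14 and Krt5 cells, 392 CPM in the mutant and 369 CPM in the control library, so Sox9 did not set them apart from those cells. Inner root sheath, melanocyte, endothelial and macrophage lists summed to less in Gnmt/Cbs cells than over the remaining kept cells in both libraries. The Merkel cell list summed to more, 65.0 CPM in mutant and 96.4 CPM in control Gnmt/Cbs cells against 14.7 CPM and 23.7 CPM, almost wholly through Krt8 and Krt18, with Krt20, Isl1 and Atoh1 at 0. The outer root sheath list summed to 21190 CPM in mutant and 20720 CPM in control Gnmt/Cbs cells, against 26290 CPM and 22500 CPM in the other Krt14 and Krt5 cells. It holds Krt14 and Krt5, which the rule used. The companion layer list summed to 18130 CPM and 19680 CPM, against 14930 CPM and 19210 CPM in those cells. The bulge list summed to 5772 CPM and 5252 CPM against 3632 CPM and 5285 CPM, and the interfollicular basal list to 10590 CPM and 9564 CPM against 19550 CPM and 16420 CPM. The summed lists therefore did not single out the outer root sheath, and the name is the one the cells were given with.

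Gnmt/Cbs cells made up a smaller share of the mutant library. They were 1.98% of its 11455 kept cells (interval 1.73 to 2.25%), against 4.15% of the 14156 kept control cells (3.82 to 4.49%), a log2 ratio of -1.07 (-1.29 to -0.84). Among Krt14 and Krt5 cells they were 9.54% in the mutant library (8.39 to 10.8%) and 20.6% in the control library (19.2 to 22.2%). With every cell thinned to 4000 UMIs before the rule was applied the shares were 2.31% (179 of 7762 cells) and 5.64% (509 of 9022 cells). That left out 3693 mutant and 5134 control cells that were too shallow. The gap appeared at the step that asks for the 3 genes, which 307 mutant and 851 control Krt14 and Krt5 cells passed. Of these, 298 and 787 cells had no Fgf5 UMI, and 245 and 630 of those passed the limit on bulge genes. Shares in dissociated tissue also depend on which cells the dissociation released, and its part in the gap was not tested.

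Transcripts of other cells reached the libraries unequally, so the share was also computed without the cells that held them, an alternative in part added after seeing the data. Dropping all Krt14 and Krt5 cells with at least 3 haemoglobin UMIs left 10.2% Gnmt/Cbs cells in the mutant library (201 of 1974) and 23.7% in the control library (232 of 978). Dropping those with at least 3 UMIs of a melanocyte, T cell, macrophage, fibroblast, endothelial or inner root sheath list left 13.5% (129 of 956) and 30.5% (197 of 646). The mutant share was the lower in both. These filters left unlike parts of the 2379 mutant and 2845 control Krt14 and Krt5 cells. Such cells were also removed from the Gnmt/Cbs cells alone, with all 11455 and 14156 cells still counted below them. The log2 ratios were then 0.10 for haemoglobin and -0.31 for the other lists. This left 201 of 227 mutant and 232 of 587 control Gnmt/Cbs cells for haemoglobin, and 129 and 197 for the other lists. The part of these transcripts in the gap was not tested.

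Gnmt/Cbs cells were then compared with the other Krt14 and Krt5 cells of their own library, 2152 mutant and 2258 control cells. A gene was called where the levels differed by 2-fold or more, the bound closer to equality still exceeded 1.5-fold, and the higher level reached 100 CPM. In these comparisons between cells the call had to hold in both libraries. Of 1374 genes compared, 100 (7.28%) were higher and 92 (6.70%) were lower in Gnmt/Cbs cells. Genes of the rule are not counted. Counts for gene lists in the paragraphs below are to be read beside these shares. Since the cells were selected on transcripts of the same cells, these ratios are a description. The plot of named genes shows ratios of the same sign in the 2 libraries, further from 0 in the mutant library for the 12 higher genes.

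**Figure D1:**
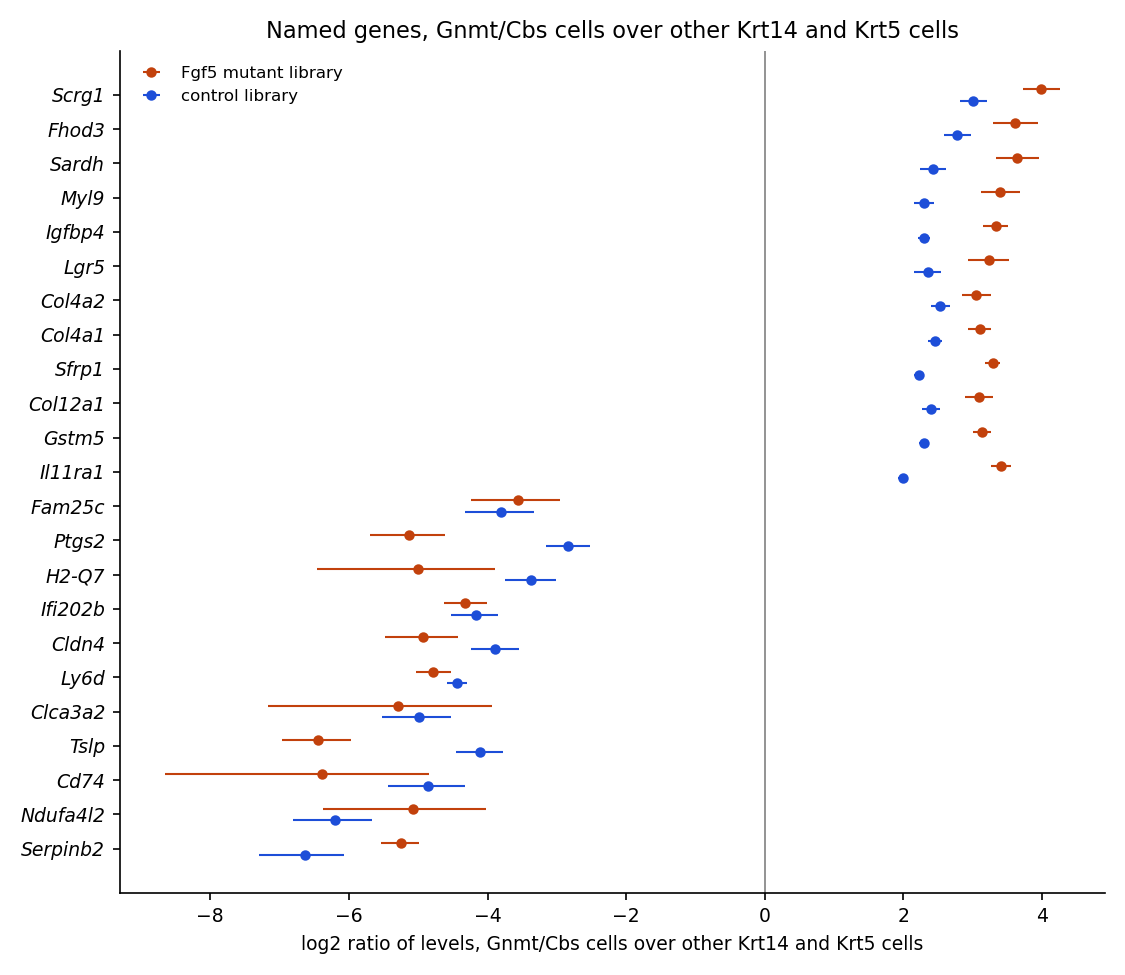
Log2 ratio of levels in Gnmt/Cbs cells over other Krt14 and Krt5 cells (horizontal axis) for the 12 genes with the highest and 11 of the 12 with the lowest mean ratio past the size rule in both libraries (vertical axis), Fgf5 mutant library above control library. Bars are 95% counting intervals; Sardh lies at 3.64 in the mutant and 2.43 in the control library, and Serpinb2 at -5.25 and -6.64.

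An enzyme that handles the product of Gnmt was among the higher genes. Sardh, sarcosine dehydrogenase, which turns sarcosine back into glycine, was at 124 CPM in mutant Gnmt/Cbs cells, against 9.94 CPM in the other mutant Krt14 and Krt5 cells, a log2 ratio of 3.64 (3.33 to 3.96). In the control library it was at 104 CPM against 19.2 CPM, a log2 ratio of 2.43 (2.24 to 2.62). It was counted in 50.2% of mutant and 52.3% of control Gnmt/Cbs cells. Cells with T cell genes held a Sardh UMI in 1.46% and 4.37%, and the deeper cells with melanocyte genes in 3.65% and 6.01%. Sardh (chromosome 2, 27188393 to 27248337, minus strand) was the only one of 22 glycine, serine and folate genes that reached the level minimum.

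Genes for making S-adenosylmethionine and glutathione were higher too. Mat2a, which makes S-adenosylmethionine, was at 621 CPM in mutant Gnmt/Cbs cells against 275 CPM in other mutant Krt14 and Krt5 cells, and at 575 CPM against 220 CPM in the control library. It was the only methionine cycle gene compared of 20. Of 6 glutathione genes compared, 4 were higher and none lower: Gclc and Gclm, the subunits of the enzyme that starts glutathione synthesis, Gsr, which regenerates reduced glutathione, and Oplah, which turns 5-oxoproline from glutathione breakdown into glutamate. Gclm stood at 329 CPM against 70.1 CPM in the mutant and 361 CPM against 122 CPM in the control library, log2 2.23 and 1.56. It shares 3' sequence with 24 other genes, so part of its count could belong to them. Gclc stood at 203 CPM against 47.6 CPM and 160 CPM against 57.7 CPM, log2 2.09 and 1.47. The peroxidases Gpx1 and Gpx4 did not pass, with log2 ratios of -0.18 for Gpx1 and -0.34 for Gpx4 in the mutant library, and -0.59 for Gpx1 and -0.15 for Gpx4 in the control library. The 6 genes had a median log2 ratio of 1.51 beside 0.01 over all genes compared. Slc3a2, the heavy chain of several amino acid exchangers, was higher at log2 1.10 and 1.16, and the glutathione transferase Gstm5 at log2 3.14 and 2.30. Some of these lists were written with results of these data known, and their direction is no independent evidence.

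Matrix and basement membrane genes formed a further group. Of 8 basement membrane and adhesion genes compared, 4 were higher and none lower: the collagen IV chains Col4a1 and Col4a2, Col18a1, and the laminin chain Lamb1. Over all 1374 genes compared, 7.28% were higher and 6.70% lower. Col4a1 was at 365 CPM in mutant Gnmt/Cbs cells against 42.6 CPM in other mutant Krt14 and Krt5 cells, and at 319 CPM against 58.0 CPM in the control library. Col12a1, a fibril-associated collagen, had log2 ratios of 3.09 and 2.40. Sparc, a matrix glycoprotein, had 2.23 and 1.83. Col17a1 and Dst, parts of the hemidesmosome that anchors basal cells, did not pass, with log2 ratios of -0.48 and 0.59 in the mutant library and -0.08 and -0.22 in the control library.

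Signalling genes of the sheath and bulge were also higher. Sfrp1, a secreted Wnt antagonist, was at 923 CPM in mutant Gnmt/Cbs cells against 94.4 CPM in other mutant Krt14 and Krt5 cells, and at 1091 CPM against 235 CPM in the control library. Of 5 Wnt genes compared, 3 were higher, with the receptor genes Lgr5 and Fzd2 beside Sfrp1, against 7.28% of all genes compared. Lgr5, known as a marker of follicle stem cells and lower sheath cells, had log2 ratios of 3.23 and 2.35. Il11ra1, a receptor for interleukin 11, was at 515 CPM against 48.3 CPM and at 700 CPM against 176 CPM, and its 3' end is shared with its near-copy Il11ra2, so the count may be split between them. Igfbp4 and Igfbp7, which bind insulin-like growth factors, were higher, while Igfbp3 was lower at log2 -3.67 and -1.81. Ltbp3 and Ltbp4, which hold latent TGF-beta in the matrix, were higher at log2 2.34 and 2.12 in the mutant library and 1.76 and 1.46 in the control library. Of the BMP list, Id4 was higher and the other 4 compared, Fst, Id1, Id2 and Id3, were not called.

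Of 10 bulge genes compared, 4 were higher and none lower, with Timp3, Nfib and Col18a1 beside Lgr5. The shares over all genes compared were 7.28% higher and 6.70% lower. Krt15, a keratin widely used as a bulge marker, did not pass: it was at 1479 CPM in mutant Gnmt/Cbs cells against 2064 CPM in other mutant Krt14 and Krt5 cells, and at 1237 CPM against 3385 CPM in the control library. Among 13 keratinocyte transcription factors compared, Nfib and Tbx1 were higher, and Klf5 and Ovol1, factors of the epidermis and of differentiation, were lower. Beside the shares over all genes, counts this small are not read as a result about the list. Tbx1 had log2 ratios of 3.27 and 2.07, and Klf5 had -2.60 and -2.80.

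Genes of the epidermis and the upper follicle were among the lower genes. The other Krt14 and Krt5 cells include 760 mutant and 915 control cells with the epidermal genes Ly6a and Fcgbp, which the rule left out. The selection itself therefore favours lower levels of epidermal genes in Gnmt/Cbs cells, and these ratios are a description. Ly6d, Ccl27a and Klf5, 3 of the 5 interfollicular basal genes compared, were lower, and Sparc of the same list was higher. Lower calls made up 6.70% and higher calls 7.28% of all genes compared. Ly6d, a surface protein of keratinocytes, stood at 97.5 CPM in mutant Gnmt/Cbs cells against 2673 CPM in other mutant Krt14 and Krt5 cells, and at 90.8 CPM against 1967 CPM in the control library. Tslp, an alarm cytokine of keratinocytes, had log2 ratios of -6.44 in the mutant and -4.11 in the control library. Serpinb2, a protease inhibitor made by stressed keratinocytes, stood at 82.4 CPM against 3144 CPM and 5.66 CPM against 566 CPM. The tight junction genes Cldn1 and Cldn4 and the adherens junction gene Cdh1 were lower, while the gap junction genes Gja1 and Gjb2 were higher. All 3 class I antigen presentation genes compared, H2-D1, H2-K1 and B2m, were lower, with H2-K1 at log2 -2.60 in the mutant and -1.89 in the control library and B2m at -2.41 and -1.60.

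Narrower sets of neighbours were compared next. Against 760 mutant and 915 control Krt14 and Krt5 cells with the epidermal genes Ly6a and Fcgbp, 142 of 1414 genes (10.0%) were higher and 138 (9.76%) lower in Gnmt/Cbs cells. Against 131 mutant and 305 control cells with bulge genes (Cd34, Postn, Fgf18 and Nfatc1), 41 of 1356 genes (3.02%) were higher and 70 (5.16%) lower. Against 37 mutant and 121 control cells with Fgf5, 44 of 1370 genes (3.21%) were higher and 52 (3.80%) lower. The sets differ in size, so these counts do not rank their likeness.

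Sardh, Gstm5, Scrg1, Lgr5 and Fhod3 were higher in Gnmt/Cbs cells in each of these comparisons. Mat2a was higher against both the bulge-gene and the Fgf5 cells. Gclc was higher against bulge-gene cells, at log2 1.11 in the mutant and 1.07 in the control library, but was not called against Fgf5 cells. Gclm, Gsr, Oplah and Slc3a2 were called against neither set, so the glutathione genes largely did not set Gnmt/Cbs cells apart from these neighbours. Gstm5 was at 616 CPM in mutant Gnmt/Cbs cells against 188 CPM in mutant bulge-gene cells and 79.7 CPM in mutant Fgf5 cells. In the control library the same levels were 598 CPM, 179 CPM and 210 CPM. Myl9, a myosin light chain of contractile cells, was at log2 2.49 over mutant and 1.81 over control bulge-gene cells. Inner root sheath keratins were higher in the summed Fgf5 cells, which are a mixed set. In the clustering given below, 33 of the 121 control Fgf5 cells lay in a cluster led by Krt27 and Krt71. Clusters 3 and 4, which held most Gnmt/Cbs cells of that library, took 22 and 23. Of the 37 mutant Fgf5 cells, 7 lay in a cluster led by Krt71, and 1 and 2 in clusters 3 and 4. Krt71 was at 77.3 CPM in mutant Gnmt/Cbs cells against 1013 CPM in mutant Fgf5 cells, and at 191 CPM against 2436 CPM in the control library.

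Levels were next read by how many UMIs of the 3 genes a Krt14 and Krt5 cell held, among cells that met the other terms of the rule. The classes hold from 14 to 1024 mutant and from 30 to 656 control cells. Sfrp1 was at 68.6 CPM in mutant cells with none of the 3 genes, 412 CPM with 2 UMIs, 782 CPM with 3 UMIs and 762 CPM with 5 to 9 UMIs. The control cells had 160, 486, 655 and 1087 CPM in the same classes. Il11ra1 in cells with 2 and 3 UMIs was at 209 and 466 CPM in the mutant library, and at 362 and 581 CPM in the control library. Cells just outside the limit held levels between those of cells with none and of cells inside it. Sox9 had no such step, with 405 and 412 CPM in mutant and 669 and 448 CPM in control cells with 2 and 3 UMIs. Depth rises along this axis too, to medians of 8036 UMIs in mutant and 9666 in control cells with at least 20 UMIs of the 3 genes, against 4254 and 4480 in cells with none.

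**Figure D2:**
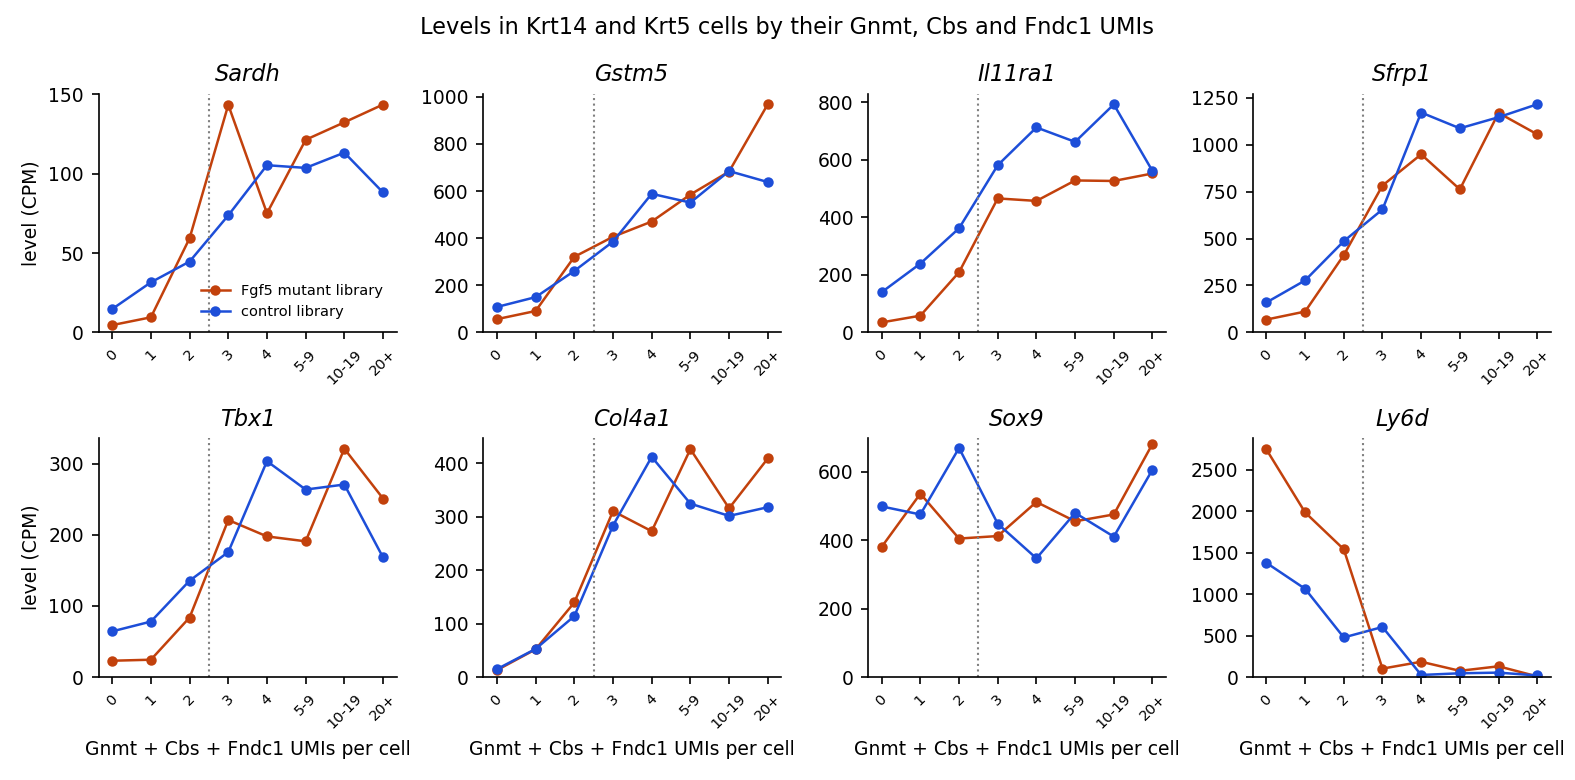
Level in CPM (vertical axis) of 8 genes in Krt14 and Krt5 cells grouped by their summed Gnmt, Cbs and Fndc1 UMIs (horizontal axis), with the Fgf5 mutant and control libraries as lines and the 3 UMI limit as a dotted line. Sardh, Gstm5, Il11ra1, Sfrp1, Tbx1 and Col4a1 are low in cells with no UMI and higher beyond the limit, Ly6d runs the other way, and Sox9 is in the range of 347 to 682 CPM throughout.

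Cells on both sides of the Krt14 and Krt5 limit were read in the same way. Cells that met the other terms with 40 to 50 Krt14 and Krt5 UMIs per 10000, 78 mutant and 174 control cells, had Sfrp1 at 712 and 899 CPM. Those with 50 to 60, just inside, numbered 48 and 152 and had 1067 and 1103 CPM. With the limit at 25 per 10000 the cells numbered 407 in the mutant and 1049 in the control library, 3.55% and 7.41% of kept cells.

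In mutant against control Gnmt/Cbs cells, 19 of 1418 genes (1.34%) were higher and 24 (1.69%) were lower. The median log2 ratio over all 1418 was -0.08. With TMM scaling 28 were higher and 20 lower, and with DESeq2 size factors 28 and 21. Sardh had a log2 ratio of 0.26 (0.00 to 0.52), Sox9 0.10 (-0.03 to 0.23) and Sfrp1 -0.24 (-0.33 to -0.15), and none passed the size rule. Gnmt, Cbs and Fndc1 had -0.15, 0.16 and 0.33, but the rule set their levels, so nothing is read from these values. Of the 6 glutathione genes compared none passed, and Gsr came nearest at 108 CPM in mutant and 207 CPM in control cells, log2 -0.94 (-1.20 to -0.69).

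**Figure D3:**
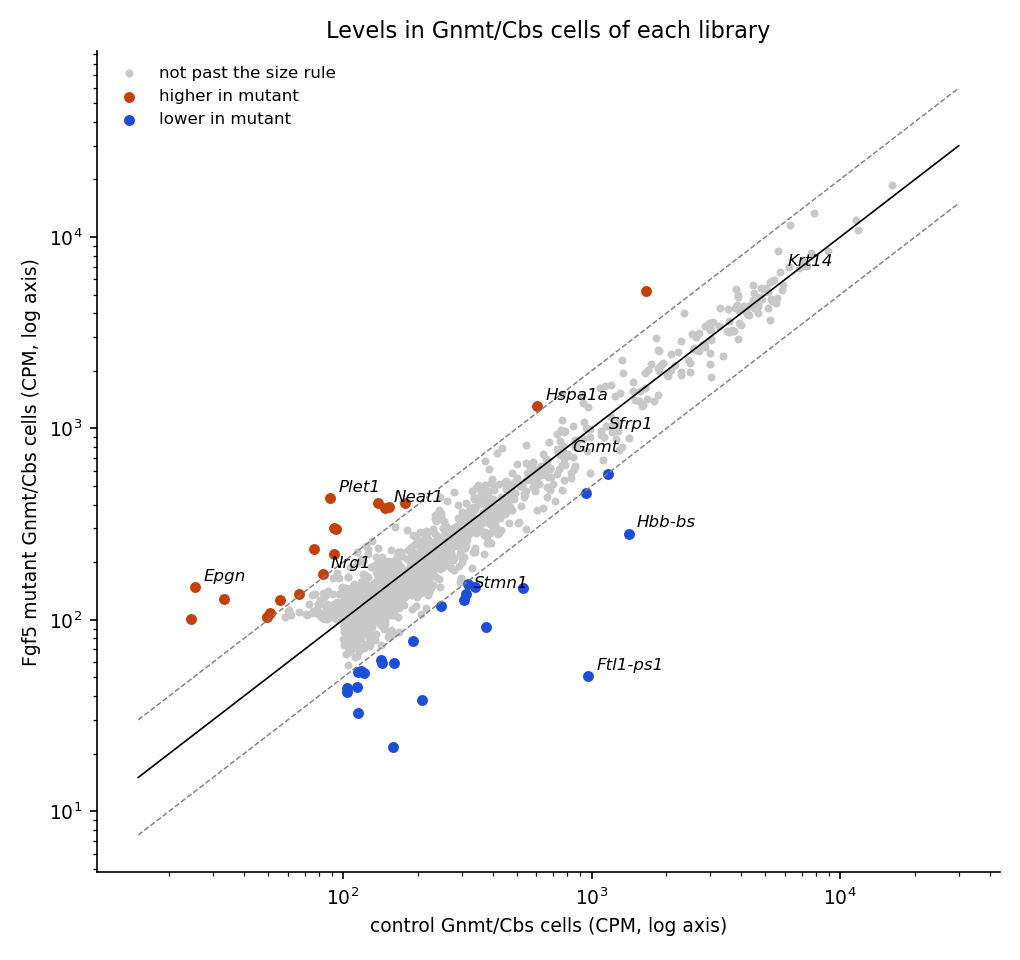
Level of each compared gene in Gnmt/Cbs cells of the Fgf5 mutant library (vertical log axis, CPM) against the control library (horizontal log axis, CPM), with equality as a solid line and 2-fold differences as dashed lines. Points past the size rule are coloured; Plet1 lies at 433 CPM in mutant and 88.9 CPM in control cells, and Ftl1-ps1 at 50.6 and 966 CPM, while Sfrp1 lies near equality.

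The named higher genes included ligands of EGF family receptors and heat shock genes. Epgn, a ligand of the EGF receptor, stood at 148 CPM in mutant and 25.5 CPM in control Gnmt/Cbs cells, log2 2.54 (2.20 to 2.89). Plet1, a surface protein of the upper follicle, stood at 433 CPM and 88.9 CPM, log2 2.29 (2.10 to 2.48). Nrg1, a ligand of ERBB receptors, stood at 173 CPM and 82.8 CPM, log2 1.07 (0.82 to 1.31). Of 5 EGF family genes compared, 2 were higher and none lower, with a median log2 ratio of 0.58. A count this small is not read as a result about the family. Sprr1a, a cornified envelope protein, stood at 303 CPM and 92.4 CPM, and Fam107b at 220 CPM and 91.9 CPM. The 26 mutant cells outside clusters 3, 4 and 12 of the clustering given below held 265 of the 420 mutant Sprr1a UMIs. Lars2, Neat1, Wdr89 and Rictor were also higher, and Wdr89 shares its 3' end with many other transcripts. Plet1 shares 3' sequence with 14 other genes. The heat shock genes Hspa1a, Hspa1b and Hsph1, chaperones induced by stress, were 3 of 12 heat shock genes compared. Over all 1418 genes, 1.34% were higher. Hspa1a was at 1304 CPM in mutant and 604 CPM in control cells, log2 1.11. The heat shock list had a median of 0.02, and the abundant Hsp90ab1, Hspb1 and Hspa8 had log2 ratios of 0.02, 0.00 and -0.02.

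The named lower genes included stress and growth regulators. Stmn1, a microtubule regulator of dividing cells, stood at 136 CPM in mutant and 312 CPM in control Gnmt/Cbs cells, log2 -1.20 (-1.43 to -0.98). Cks2, a cell cycle kinase subunit, stood at 59.2 CPM and 144 CPM, and Hmgn2, a nucleosome-binding protein, at 41.9 CPM and 104 CPM. Hmgn2, Stmn1 and Cks2 share 3' sequence with other gene models. Pthlh, a secreted peptide of the parathyroid hormone family, stood at 148 CPM and 340 CPM. Ppp1r15a, a stress-induced phosphatase subunit, stood at 127 CPM and 308 CPM, and Irf1, a transcription factor induced by interferons, at 52.7 CPM and 121 CPM. Krt6a, a keratin of the companion layer, stood at 61.4 CPM and 143 CPM, log2 -1.22 (-1.56 to -0.89). The 74 control cells outside clusters 3, 4 and 12 of the clustering held 559 of its control UMIs, in cluster 3 it stood at 44.7 CPM and 16.6 CPM, and with thinned cells the log2 ratio was 0.94, so its direction turned. Lsm8 and Erh, which take part in RNA processing, had log2 ratios of -1.34 and -1.24. Of the BMP targets, Id1 was lower at 460 CPM and 952 CPM, log2 -1.05, while Id2, Id3 and Id4 had -0.87, -0.73 and -0.21 and did not pass.

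Some called genes are known from other cell types. Hbb-bs, Hba-a1, Hba-a2 and Hbb-bt, the globins of red cells, were lower in mutant Gnmt/Cbs cells, with Hbb-bs at 282 CPM and 1410 CPM. Pmel, Dct, Ptgds and Mlana, which melanocytes make, were higher, and each was below 10% of its level over the other kept cells. Krt71, an inner root sheath keratin, was lower at 77.3 CPM and 191 CPM. The melanocyte list summed to 418 CPM in mutant and 133 CPM in control Gnmt/Cbs cells, beside 12710 CPM and 7566 CPM over the other kept cells, and none of its 9 genes was at 0. The inner root sheath list summed to 291 CPM and 596 CPM, with 2 genes at 0 in mutant and 1 in control cells. The haemoglobin list summed to 543 CPM and 2479 CPM, with none at 0. With Gnmt/Cbs cells that held genes of other types removed, 20 of the 27 named genes kept their call and 7 became weaker. With those that held haemoglobin transcripts removed, 23 kept it, 3 became weaker and 1 reversed. The causes of these changes were not tested. Ftl1-ps1, at 50.6 CPM and 966 CPM, is named as a pseudogene but listed as protein-coding in GENCODE vM21. It shares 3' sequence with the ferritin gene Ftl1, so its count is uncertain.

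Many of the called genes were also called in neighbouring keratinocytes. In the other Krt14 and Krt5 cells 100 of 1565 genes (6.39%) were higher and 82 (5.24%) lower in the mutant library. Of the 19 higher genes of Gnmt/Cbs cells 11 were also called higher there, and of the 24 lower genes 13 were also called lower, with no gene called in the opposite direction. Besides Epgn, Plet1, Neat1 and Wdr89, those 11 were the melanocyte genes Pmel, Dct, Ptgds and Mlana and ribosomal or unnamed gene models. The 13 lower genes included Krt71, Ftl1-ps1 and unnamed gene models. In the other Krt14 and Krt5 cells Epgn had a log2 ratio of 2.81 and Plet1 of 1.94, Stmn1 -1.53 and Id1 -2.28. The 3 heat shock genes, Fam107b, Nrg1, Sprr1a, Lars2, Rictor, Krt6a, Pthlh, Erh and the 4 globins were not called there. Nor was Hmgn2, at 29.2 CPM in mutant and 91.9 CPM in control cells, log2 -1.65, since neither level reached 100 CPM. Hspa1a was at 942 CPM in mutant and 848 CPM in control cells of that set, log2 0.15. The 2 sets are not independent, since they come from the same libraries, and whether a ratio differed between them was not tested.

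Clustering of all 5224 Krt14 and Krt5 cells without the 12 genes of the rule gave 19 clusters, and 3 of them held most Gnmt/Cbs cells. Clusters 3, 4 and 12 held 71, 80 and 50 of the mutant and 281, 227 and 5 of the control Gnmt/Cbs cells, 88.5% and 87.4% together. The genes leading cluster 3 were Slpi, Ccl2, Col4a1 and Sfrp1, those of cluster 4 Tagln, Scrg1, Igfbp4 and Il11ra1, and those of cluster 12 Fam107b, Ctsl, Nrg1 and Nppc. Gnmt was also among the leading genes of clusters 3 and 4, although it had not been used to form them. Cluster 12 consisted of 98 mutant and 9 control cells. It may be a feature of 1 library, and its size is not read as a difference between genotypes.

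In the mutant library Gnmt, Cbs and Fndc1 were each higher in cluster 4 than in clusters 3 and 12. Gnmt stood at 978 CPM in mutant and 1055 CPM in control Gnmt/Cbs cells of cluster 4, at 730 CPM and 835 CPM in cluster 3, and at 309 CPM and 299 CPM in cells outside these clusters. Cbs stood at 546 CPM and 519 CPM in cluster 4 and at 464 CPM and 383 CPM in cluster 3. The rule asked each cell for at least 3 UMIs of these genes, and depth differed between the clusters. Median depths were 4599 UMIs in mutant and 5010 in control Gnmt/Cbs cells of cluster 4, and 5706 and 5812 in cluster 3. Outside these clusters they were 7847 and 7674. Medians of the 3 genes together were 7 UMIs in mutant and 9 in control cells in both cluster 3 and cluster 4. The order of the levels is therefore a description.

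The ratios of Epgn, Plet1, Fam107b and Nrg1 were smaller within clusters 3 and 4. Nrg1 was at 516 CPM in mutant Gnmt/Cbs cells of cluster 12, but at 76.6 CPM in mutant and 104 CPM in control cells of cluster 3, and at 26.5 CPM and 16.8 CPM in cluster 4. In the cells of clusters 3 and 4 alone, 151 mutant and 508 control, the log2 ratios were 0.71 for Epgn, 0.61 for Plet1, 0.23 for Fam107b and -0.41 for Nrg1, and none of the 4 passed the size rule. Nor did Sprr1a at 0.06, Rictor at 0.74, Hbb-bs at -0.03 and Hbb-bt at -0.72, and Krt6a, Hba-a1 and Hba-a2 were at 1.25, 0.67 and 0.52. Plet1 reached 927 CPM in the mutant cells of cluster 12 and 979 CPM in those of the remaining clusters. Hspa1a and Hspa1b were higher within both clusters. Hspa1a stood at 2573 CPM in mutant and 661 CPM in control cells of cluster 3, log2 1.96 (1.85 to 2.07), and at 795 CPM and 341 CPM in cluster 4, log2 1.22, but at 98.3 CPM in the mutant cells of cluster 12. Outside the 3 clusters its log2 ratio was 0.39, below the size rule. Hspa1b stood at 715 CPM in mutant and 179 CPM in control cells of cluster 3, and had a log2 ratio of 1.57 in cluster 4. Hsph1 was higher in cluster 3, at log2 1.90, but stood at 47.7 CPM and 52.1 CPM in cluster 4, log2 -0.13. Stmn1 stood at 160 CPM and 377 CPM in cluster 3, log2 -1.24 (-1.60 to -0.90), and at 119 CPM and 233 CPM in cluster 4, where it missed the size rule at log2 -0.96. Pthlh stood at 78.7 CPM and 335 CPM in cluster 3, and at 13.3 CPM and 31.1 CPM in cluster 4.

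**Figure D4:**
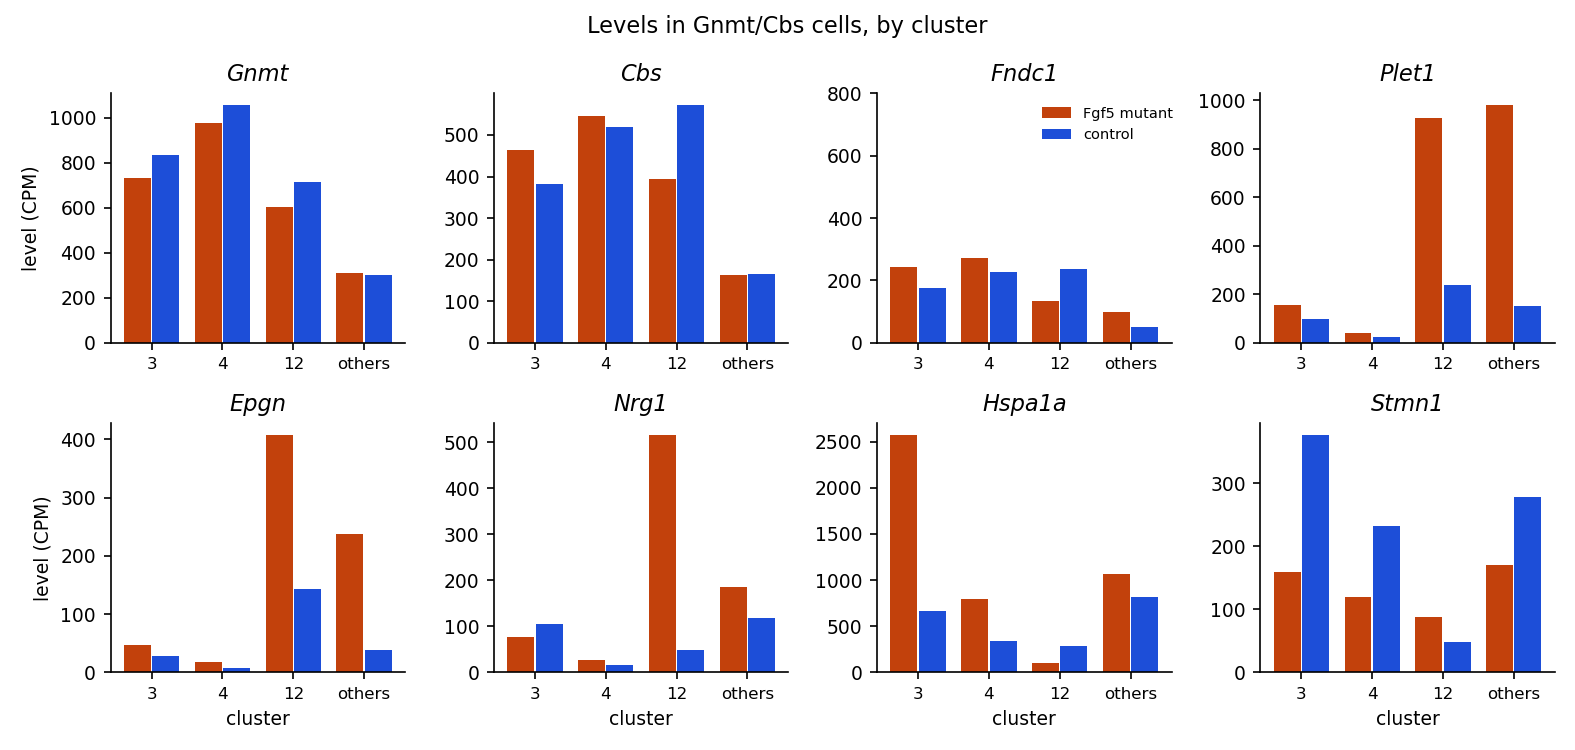
Level in CPM (vertical axes) of 8 genes in Gnmt/Cbs cells of clusters 3, 4 and 12 and of the other clusters (horizontal axes), Fgf5 mutant library left of control library. Gnmt, Cbs and Fndc1 were used by the rule; Plet1, Epgn and Nrg1 are high in mutant cells of cluster 12 and Hspa1a is high in mutant cells of cluster 3, and the control bars of cluster 12 rest on 5 cells.

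The green reporter was counted in many Gnmt/Cbs cells. eGFP summed to 1936 CPM in mutant and 1645 CPM in control Gnmt/Cbs cells, against 960 CPM and 1014 CPM in the other Krt14 and Krt5 cells. In cells thinned to 4000 UMIs, 71.5% of mutant Gnmt/Cbs cells (123 of 172, interval 64.1 to 78.1%) and 55.4% of control ones (279 of 504, 50.9 to 59.8%) held an eGFP UMI, with medians of 5 and 1 UMIs. The unthinned shares were 73.6% and 61.5%. Without thinning 34.7% of mutant and 28.4% of control cells with T cell genes held one, at median depths below those of Gnmt/Cbs cells, and 47.0% and 32.2% of the deeper cells with melanocyte genes did. Whether the eGFP UMIs of these other cells came from recombination in them or from transcripts of other cells was not tested. The shares are therefore no measured background. Within cluster 4 eGFP was at 1389 CPM in mutant and 686 CPM in control cells, log2 1.02 (0.86 to 1.18). It was not called in cluster 3 (log2 0.33), cluster 12 (0.02) or the other clusters (-0.13). Tomato, the red reporter, was at 0 in the Gnmt/Cbs cells of both libraries, which allows levels of up to 2.17 CPM in mutant and 0.707 CPM in control cells. It was also at 0 over the remaining kept cells, so its absence says nothing of recombination.

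Division genes were counted in a minority. Among thinned cells, 6.98% of mutant Gnmt/Cbs cells (12 of 172, interval 3.66 to 11.9%) and 11.7% of control ones (59 of 504, 9.03 to 14.8%) held a UMI of Mki67 or Top2a, which dividing cells transcribe. In the other Krt14 and Krt5 cells the shares were 12.4% (191 of 1538) and 21.9% (376 of 1721). The longer S phase and G2/M lists hold genes that most cells transcribe: 68.6% of mutant and 76.8% of control Gnmt/Cbs cells held at least 2 UMIs of the S phase list, and 86.6% and 94.8% of the G2/M list, so these lists do not read division here.

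Gnmt/Cbs cells also varied among themselves. Over 2243 genes with at least 0.2 UMI per thinned cell, the median ratio of variance to mean was 1.10. The 10 most variable genes were Hbb-bs, Hba-a1, Hba-a2, Apoe, Fos, Malat1, Ctla2a, Slpi, Ccl2 and Hspa1a. Fos, an immediate early gene, averaged 11.3 UMIs per mutant and 16.5 per control cell with ratios of variance to mean of 16.9 and 17.3. Slpi, a protease inhibitor, averaged 0.767 and 0.790 UMIs but reached 31 UMIs in a mutant and 52 in a control cell. Ccl2, a chemokine, averaged 0.448 and 1.12 UMIs, with up to 34 and 32 UMIs in a cell. Hspa1a was found in 65.7% and 64.3% of cells. Its mean was 5.03 UMIs in mutant cells, with up to 52, and its maximum in control cells was 64.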

How the data were processed

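Single-cell RNA was measured with 10x Genomics 3' v3 libraries of dorsal skin epidermis. The authors deposited unnormalised counts of UMIs for each gene in each barcode, and the submitters' processing notes name Cell Ranger 3.0.2, Seurat 3.0.0 and 3.1.0 and GRCm38 (mm10). The mutant matrix held 13411 barcodes and 97817173 UMIs, the control matrix 16973 and 140880809. UMIs were summed over cells and divided by their total (CPM). Ratios carry exact conditional 95% Poisson intervals and shares carry Clopper-Pearson intervals (scipy 1.17.1). A 3' count level is not a level per length, so genes are compared between cells, not with each other. The sums and size rule were tested on simulated data.

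Doublets were called with Scrublet in scanpy 1.11.5 and kept (6 mutant and 21 control Gnmt/Cbs cells). Leiden clusters (leidenalg 0.10.2, resolution 1) used 2000 variable genes and 30 components. Scaling alternatives used edgeR 4.0.16 (TMM) and DESeq2 1.42.0 size factors on the deposited counts. Coordinates are GENCODE vM21. The last 500 bases of the transcripts of 283 genes were searched for stretches of 50 bases found in other genes. Such a stretch was found for 89 of them, including Gclm, Slc3a2, Igfbp4, Plet1, H2-D1, H2-K1, Sparc, Erh and Fgf5. Part of the counts of these 89 genes could belong to other genes.

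Named were the 15 largest ratios per direction between libraries, without mitochondrial, ribosomal and unnamed gene models or genes below 10% of their level elsewhere, the 12 largest per direction against other Krt14 and Krt5 cells, the 10 most variable genes, list genes past the size rule and up to 5 of the highest of each list. A gene that the rule picked is not reported here. Further genes were named with their values in view. The cells and the gene lists were chosen with earlier results of these data known.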

Additional observations from a re-analysis of the deposited data

Results flagged for a closer look

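Among barcodes left out for few genes or many mitochondrial UMIs, 0.358% in the mutant and 0.142% in the control library held at least 3 UMIs of Gnmt, Cbs and Fndc1. These barcodes enter no comparison, and the value was marked because the mutant share was above that of the control library.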

How the results depend on the processing

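The share of Gnmt/Cbs cells kept its direction in all alternatives but 2. Log2 ratios of mutant over control shares of kept cells lay between -1.29 and -1.01 with a limit of 5 UMIs, thinning, doublets removed, a 10% mitochondrial limit, a lower Krt14 and Krt5 limit or cells with Mki67 or Top2a removed. Removing Gnmt/Cbs cells with genes of other types gave -0.31, and removing those with haemoglobin gave 0.10, which reverses it. With haemoglobin cells removed from all kept cells it was -1.16, and among Krt14 and Krt5 cells -1.22, or -1.18 for genes of other types. Higher and lower calls between libraries numbered 46 and 41 at a minimum of 50 CPM and 11 and 12 at 200 CPM. Higher calls numbered 33 without haemoglobin cells, 30 without Mki67 or Top2a cells and 8 without cells with at least 2 S or G2/M UMIs, which left only 11 mutant and 5 control cells (0.0960% and 0.0353% of kept cells, a reversed share). In that last setting Epgn (-0.88), Plet1 (-1.47), Sprr1a (-1.47), Neat1 (-1.47), Hsph1 (-0.88), Hbb-bt (0.12), Lsm8 (0.12), Erh (0.12) and Stmn1 (0.12) reversed. In clusters 3 and 4 alone Nrg1 (-0.41), Hba-a2 (0.52), Hba-a1 (0.67) and Krt6a (1.25) reversed. Krt6a reversed with thinning (0.94) and Hbb-bt without haemoglobin cells (0.37). The causes were not tested. All 27 named genes kept direction and call under TMM and DESeq2 scaling. Against other Krt14 and Krt5 cells, TMM moved all genes by -0.15 in the mutant library, 110 and 112 genes were called with thinning and 90 and 107 with TMM, and 23 of 24 named genes kept their call (Lgr5 did not). Haemoglobin, Mki67 and Top2a, cluster and lower Krt14 and Krt5 settings were chosen after seeing the data. No paired analysis was possible because each group is 1 pooled matrix. With 1 matrix per group, counting intervals do not cover animals, dissociation or sequencing, and the 227 mutant cells limit genes near 100 CPM.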

Other observations

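Gene groups outside the comparisons above also differed between Gnmt/Cbs cells and the other Krt14 and Krt5 cells, as a description. Of 21 immediate early genes compared, Fosl1 (log2 -1.54 in the mutant and -1.39 in the control library) and Gadd45b (-1.33 and -1.53) were lower and none was higher. Since 6.70% of all genes compared were lower, so few calls are not read as a result about the list. Of 8 wound and alarm genes compared, Slpi was higher (2.07 and 1.37), and Krt16, Tslp and Serpinb2 were lower. Cdkn1a, an inhibitor of the cell cycle induced by p53, was lower at 185 CPM against 458 CPM in the mutant and 152 CPM against 574 CPM in the control library, and Mdm2, another p53 target, was lower at log2 -1.83 and -1.22. Of the list of fasting, p53 and cell cycle inhibitor genes, 4 were compared, 2 were lower and none was higher. A count this small is not read as a result about the list. Sat1, which starts polyamine breakdown, was lower at -1.81 and -2.68. Dusp7, a phosphatase that acts on ERK, was lower at -1.15 and -2.18. Of the 11 heat shock and 11 mitochondrially encoded genes compared none was called, and between libraries the 11 mitochondrially encoded genes had a median log2 ratio of 0.49 in Gnmt/Cbs cells.

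Serpinb2 was at 82.4 CPM in mutant and 5.66 CPM in control Gnmt/Cbs cells. It reached no call between the libraries because neither level reached 100 CPM.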
